A study of Mus musculus with 8 samples.

Results

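The comparison described here sets LncMyod siRNA against control siRNA in cultured mouse satellite cells, the stem cells that reside in muscle fibres' niches, with ATAC-seq as the readout. The assay uses a transposase that inserts adapters wherever DNA is accessible, so that open chromatin can be sequenced. Its members are 4 of the 8 libraries of the series, 2 per group, and the loci whose peak strength ranked apart between the groups. Members were chosen by 2 steps. Every library's list of broad peaks was shortened to the 79396 peaks with the highest deposited −log10 p, the length of the shortest list, and the fold enrichment of each peak over its background was then turned into a percentile within its own library over the regions that all 4 lists held. Of 107452 merged regions, 57635 (53.6%) were held by all 4 lists. A region was called by the 10-point rule when both LncMyod siRNA percentiles lay above both control siRNA percentiles, or both below, by at least 10 percentile points. That gave 1881 regions ranked higher (3.26%) and 2462 ranked lower (4.27%) in LncMyod siRNA.

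The LncMyod siRNA cells were satellite cells from C57BL/6 hindlimb muscle, cultured in F10 medium with 10% horse serum and penicillin and streptomycin, per the labels towards differentiation, and exposed to the siRNA for 48 h before harvest. The control siRNA cells had the same strain, muscle, medium and assay, and no exposure time is given for their siRNA in the labels. The labels state neither the siRNA sequences, nor the level of LncMyod after the knockdown, nor the number of animals. They do not say if the replicates of a group were separate cultures, so a p-value below measures only the spread between these libraries, which may be technical.

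MyoD is the basic helix-loop-helix transcription factor that commits satellite cells to the muscle lineage. It pairs with an E protein and binds E-boxes, sites of the form CANNTG. LncMyod is a long noncoding RNA transcribed next to the Myod1 gene and known in mouse myoblasts as a MyoD target needed for their differentiation, through binding of the Igf2bp2 protein and through effects on chromatin where MyoD binds. As myoblasts differentiate they leave the cell cycle, fuse into myotubes and open the loci of sarcomere and calcium-handling genes, while Id proteins and Twist-like factors hold MyoD back.

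The promoters printed next, from RefSeq on GRCm38.p6, are the 3 coding gene starts per direction with the widest gap among the starts that lie inside a region, so that the sequence behind the start-site results can be read. Each run goes 5′ to 3′ on the gene's strand, from 250 bases before the start to 50 after it, and capitals mark every match to the E-box CANNTG, which reads the same class on both strands. The first 3 lay in regions ranked higher in LncMyod siRNA. They are Dennd2d (chr3:106482181-106482480, plus strand), Dgkd (chr1:87853037-87853336, plus strand) and Nrap (chr19:56389989-56390288, minus strand). The other 3 lay in regions ranked lower. They are Prss28 (chr17:25308396-25308695, plus strand), Tpp1 (chr7:105752186-105752485, minus strand) and Trpv3 (chr11:73267270-73267569, plus strand).
Dennd2d: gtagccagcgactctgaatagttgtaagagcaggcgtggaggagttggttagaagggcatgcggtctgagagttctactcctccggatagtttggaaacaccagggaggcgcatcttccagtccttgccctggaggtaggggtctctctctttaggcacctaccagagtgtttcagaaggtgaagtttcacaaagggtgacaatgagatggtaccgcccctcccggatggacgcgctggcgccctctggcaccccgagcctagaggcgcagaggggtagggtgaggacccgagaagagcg
Dgkd: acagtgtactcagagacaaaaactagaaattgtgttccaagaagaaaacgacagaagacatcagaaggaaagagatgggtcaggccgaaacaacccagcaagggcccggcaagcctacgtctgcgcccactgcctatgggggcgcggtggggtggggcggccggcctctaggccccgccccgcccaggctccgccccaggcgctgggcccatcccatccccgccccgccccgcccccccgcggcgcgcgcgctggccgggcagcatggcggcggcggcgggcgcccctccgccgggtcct
Nrap: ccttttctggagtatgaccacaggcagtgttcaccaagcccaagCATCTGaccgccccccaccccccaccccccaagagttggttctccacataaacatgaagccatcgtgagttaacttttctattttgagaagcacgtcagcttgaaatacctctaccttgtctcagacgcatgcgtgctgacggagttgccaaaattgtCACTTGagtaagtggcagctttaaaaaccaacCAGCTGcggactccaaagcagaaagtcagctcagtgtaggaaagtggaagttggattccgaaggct
Prss28: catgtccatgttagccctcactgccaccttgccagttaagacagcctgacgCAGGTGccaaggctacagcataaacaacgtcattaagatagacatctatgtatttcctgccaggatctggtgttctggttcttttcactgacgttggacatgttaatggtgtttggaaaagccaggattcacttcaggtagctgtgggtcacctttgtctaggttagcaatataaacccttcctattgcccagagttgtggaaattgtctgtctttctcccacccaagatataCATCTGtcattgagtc
Tpp1: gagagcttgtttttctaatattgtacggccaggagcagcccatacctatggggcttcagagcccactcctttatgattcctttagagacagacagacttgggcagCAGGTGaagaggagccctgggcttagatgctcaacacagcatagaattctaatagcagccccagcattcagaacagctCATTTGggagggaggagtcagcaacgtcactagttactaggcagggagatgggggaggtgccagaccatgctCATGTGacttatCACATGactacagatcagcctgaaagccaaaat
Trpv3: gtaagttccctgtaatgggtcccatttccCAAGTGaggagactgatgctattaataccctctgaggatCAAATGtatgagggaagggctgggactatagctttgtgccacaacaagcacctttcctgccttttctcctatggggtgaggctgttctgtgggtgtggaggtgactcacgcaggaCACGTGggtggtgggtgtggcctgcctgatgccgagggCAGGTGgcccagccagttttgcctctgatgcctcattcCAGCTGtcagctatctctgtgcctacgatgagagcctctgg
The Dennd2d and Dgkd promoters hold 0 matches to CANNTG, and Nrap holds 3. Prss28 holds 2, Tpp1 holds 4 and Trpv3 holds 5.

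LncMyod siRNA replicate 2 stood apart from the other 3 libraries. It held 79396 peaks before shortening, against 95449 in replicate 1 and 82854 and 81327 in the control siRNA libraries. Within the lists of equal length, 14164 of its regions (18.0%) were held by no other list, against 4662 (5.91%) in LncMyod siRNA replicate 1 and 4176 (5.30%) and 4314 (5.48%) in control siRNA. The weakest peak kept had a −log10 p of 2.83 in this library, 4.03 in replicate 1, and 3.71 and 3.32 in control siRNA. The Jaccard index, the length covered in both of a pair of lists over the length covered in either, was 0.559 between the LncMyod siRNA replicates and 0.708 between the control siRNA replicates. Replicate 1 shared 0.695 and 0.686 with the control siRNA libraries, and replicate 2 shared 0.565 and 0.565. The knockdown replicates thus shared less with each other than either shared with the control libraries. The Spearman correlation of fold over the common regions was 0.872 between the knockdown replicates and 0.910 between the control replicates. It was 0.899 and 0.908 between replicate 1 and the control libraries, and 0.833 and 0.852 between replicate 2 and the control libraries. The median percentile of regions within 1 kb of a gene end was 62.2 and 67.7 in LncMyod siRNA and 60.4 and 61.2 in control siRNA, so replicate 2 also ranked these regions higher than the other 3. The share of peaks on the X chromosome was 1.74% and 1.20% in LncMyod siRNA and 1.78% and 1.72% in control siRNA. The part of these library properties in the results below was not tested. Counts without replicate 2 are given beside the main counts of regions and loci, and beside the region counts of most gene lists. The counts of covered length per gene list are not given without it.

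The satellite cell label was checked against marker genes. All of Myod1, Myog, Myf5, Myf6 and Pax7, which encode the transcription factors of the satellite cell and the myoblast, held peaks in every library. Scaled covered length at Pax7 was 8.43 and 9.11 kb in LncMyod siRNA and 9.70 and 8.72 kb in control siRNA. Loci of other cell types also held peaks. The 16 of 17 leukocyte marker loci that held enough covered length to be tested summed to 31.0 and 34.9 kb in LncMyod siRNA and 35.4 and 36.1 kb in control siRNA, with 1 of 16 at 0 in each library. All 14 fibroadipogenic loci were tested and summed to 31.9 and 33.4 kb in LncMyod siRNA and 33.7 and 35.005 kb in control siRNA, 12 of 13 endothelial loci to 37.9 and 45.3 kb against 35.5 and 39.5 kb, and 5 of 10 hepatocyte loci to 6.87 and 5.48 kb against 5.25 and 5.58 kb. The 8 glial loci tested summed to 38.4 and 34.6 kb in LncMyod siRNA and 42.2 and 49.8 kb in control siRNA, lower without overlap, and the 10 mural loci to 35.2 and 36.3 kb against 38.2 and 37.0 kb, also without overlap. In a mixed culture, fewer cells of a type and less open chromatin per cell cannot be told apart, and the part of other cells in the results was not tested.

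Across all regions, no single region passed the test. limma on the normal scores of the ranks called 0 of 57635 regions at an adjusted p of 0.05 (0.0%), with a lowest adjusted p of 0.214. At an unadjusted p of 0.05 it called 4540 (7.88%), of which 1649 ranked higher and 2891 lower in LncMyod siRNA. With 2 libraries against 2, an exact permutation test cannot go below p = 0.33. Every named region below is therefore given as a description, and "ranked higher" or "ranked lower" states only that the groups' values do not overlap.

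The rank shifts were mostly small. Any gap at all was seen at 13295 regions higher in LncMyod siRNA (23.1%) and 10493 lower (18.2%). Past the 10-point rule the median gap was 13.4 points for regions ranked higher and 14.6 for regions ranked lower. Only 26 regions ranked higher by 30 points or more, and 70 ranked lower. Just inside the rule lay gaps of 10.006 and 10.003 points, and just outside it 9.994 and 9.996. The balance of directions also changed with the size of the gap, with more regions higher than lower for any gap, and more lower than higher past 10, 20 (243 higher, 496 lower) and 30 points. Without LncMyod siRNA replicate 2 the 10-point rule gave 5752 regions higher and 6037 lower, and without replicate 1 it gave 9386 and 8679, since a single library has less to overlap with.

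**Figure D1:**
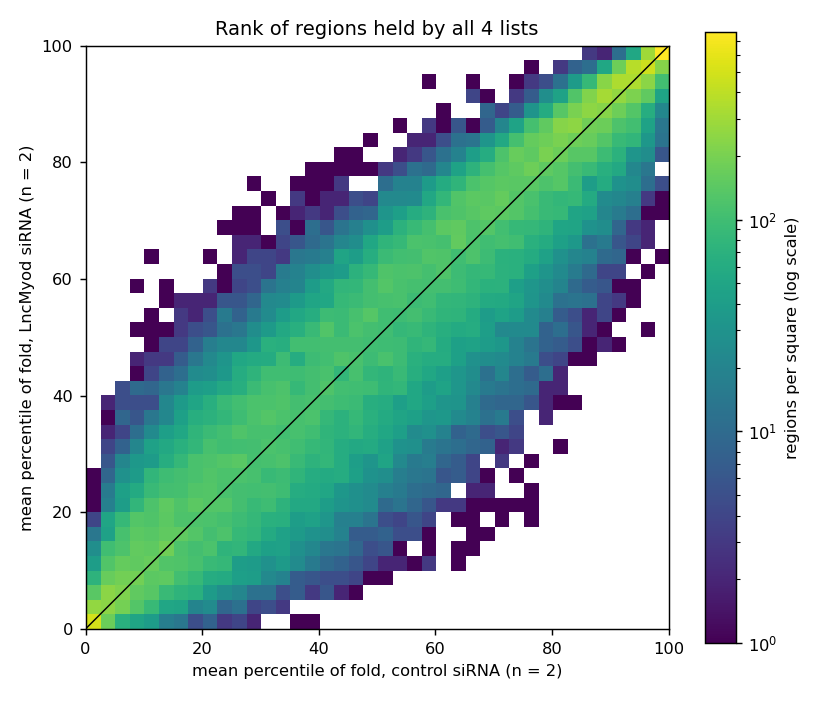
Mean percentile of fold of the 57635 regions held by all 4 lists in LncMyod siRNA (vertical axis, mean of 2 libraries) against control siRNA (horizontal axis, mean of 2 libraries), with the number of regions per square in colour on a log scale. Most regions lie near the diagonal, and LncMyod siRNA ranked lower below it and higher above it. The gap between the nearest libraries of the groups, which the means do not show, passed 20 points at 496 regions lower and 243 higher.

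Regions ranked higher in LncMyod siRNA had a median percentile of 51.8 and 54.9 in LncMyod siRNA and 28.9 and 29.9 in control siRNA. Regions ranked lower had 33.4 and 28.8 in LncMyod siRNA and 58.9 and 57.5 in control siRNA. On the scale of the deposited fold itself, regions ranked higher had a median of 4.48 and 4.02 in LncMyod siRNA and 4.16 and 3.89 in control siRNA, and regions ranked lower 3.76 and 3.22 against 5.56 and 5.08. The median over all common regions was 4.397 and 3.84 in LncMyod siRNA and 5.10 and 4.71 in control siRNA, so a region with an equal fold in both groups ranked higher in LncMyod siRNA.

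Most regions with the widest gaps lay away from any listed gene start. The widest in the higher direction lay inside Sppl3 (chr5:115062612-115063637), which encodes an intramembrane protease of the Golgi. It stood at percentiles of 54.1 and 64.9 in LncMyod siRNA and 7.67 and 7.66 in control siRNA. Inside Hcfc2, a host cell factor gene, the values were 57.3 and 54.6 in LncMyod siRNA and 14.6 and 13.7 in control siRNA. Both regions were near the middle of the ranking in the knockdown libraries and near its bottom in the control libraries. Pdlim1, which encodes a PDZ and LIM domain protein of the actin cytoskeleton, held a region at 83.0 and 71.5 in LncMyod siRNA and 32.8 and 24.95 in control siRNA. Igfbp7, a secreted protein that binds insulin-like growth factors, held one at 73.7 and 54.0 in LncMyod siRNA and 7.52 and 15.5 in control siRNA. The other 5 of the 9 regions named in this direction had gaps of 35.1 to 37.4 points, and their nearest coding genes were Xcl1, Aldh8a1, Map4k3, Gm41408 and Dennd2d.

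In the lower direction the widest gap lay inside Frmd4b (chr6:97339323-97340616), which encodes a FERM domain scaffold protein. Its percentiles were 19.5 and 22.2 in LncMyod siRNA and 73.2 and 73.4 in control siRNA. Akt2, the Akt kinase best known for insulin signalling in muscle and fat, held a region within its gene body (chr7:27621464-27622624) at 19.4 and 12.1 in LncMyod siRNA and 70.5 and 69.2 in control siRNA. A region 73 kb from Lrpap1 stood at 29.0 and 7.35 in LncMyod siRNA and 77.1 and 75.3 in control siRNA. A region beside S100a14, a calcium-binding protein gene, stood at 31.0 and 33.4 in LncMyod siRNA and 84.6 and 78.4 in control siRNA. Rassf2, a Ras-association domain gene, held one at 16.6 and 7.90 in LncMyod siRNA and 59.8 and 69.9 in control siRNA. Zfp423, a zinc-finger factor of the preadipocyte fate, held one at 13.5 and 10.2 in LncMyod siRNA and 55.6 and 62.0 in control siRNA. A second region of Zfp423 also passed the 10-point rule in this direction, at 27.5 and 1.20 in LncMyod siRNA and 41.6 and 57.8 in control siRNA. The adjusted p of the Sppl3, Frmd4b and Akt2 regions by limma was 0.571.

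**Figure D2:**
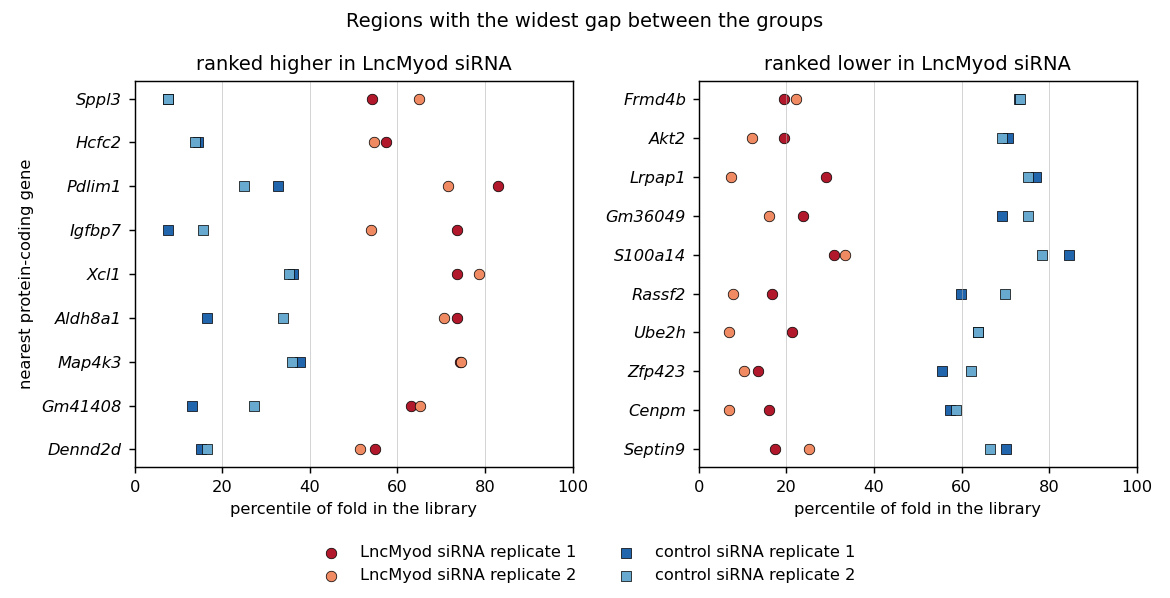
Percentile of fold within each library at regions with the widest gap, 9 ranked higher and 10 ranked lower, labelled by the nearest coding gene; circles are the 2 LncMyod siRNA libraries and squares the 2 control siRNA libraries. At Sppl3 the knockdown libraries stand at 54.1 and 64.9 and both control libraries at about 7.7, and at Frmd4b the knockdown libraries stand at 19.5 and 22.2 and the control libraries at 73.2 and 73.4.

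Regions that ranked lower in LncMyod siRNA were more often distal than those that ranked higher. A gene end, meaning the start or the end of a coding or long noncoding gene, lay within 1 kb of 481 of the 1881 regions ranked higher (25.6%) and of 318 of the 2462 ranked lower (12.9%), against 28.1% of all common regions. Read the other way, regions near gene ends were called higher in 2.97% and lower in 1.96% of cases, and regions farther away in 3.38% and 5.18%. The median width was 770 bp for regions ranked higher and 664 bp for regions ranked lower, against 802 bp for all. No test was run on these shares, because regions of one set of libraries are not independent replicates, and replicate 2 ranked gene ends higher as given above.

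The lists of the uncultured cells of the same series gave a readout that the rule had not used. These were 2 libraries of satellite cells taken 2.5 days after muscle injury (ASC) and 2 of satellite cells described as freshly isolated (QSC). Their labels also give 10% horse serum, so the serum does not set them apart from the cultured cells. Both ASC lists held 78.0% of the regions ranked higher and 51.6% of those ranked lower, against 72.8% of all common regions. No ASC or QSC list held 169 of the regions ranked higher (8.98%) and 574 of those ranked lower (23.3%), against 11.1% of all. Among the 6395 common regions that no ASC or QSC list held, 2.64% ranked higher and 8.98% lower in LncMyod siRNA. A region seen in the cultured libraries and in no ASC or QSC list therefore ranked lower in LncMyod siRNA more often than higher, and the strength of these regions differs too, since their median percentile was 32.4 and 26.5 in LncMyod siRNA and 34.7 and 33.2 in control siRNA.

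**Figure D3:**
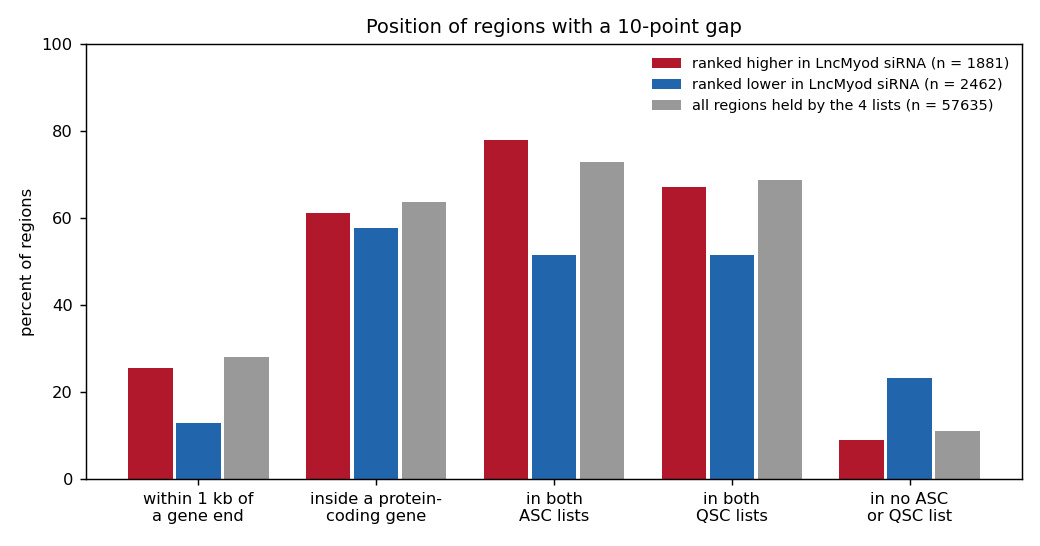
Share of regions, in percent, within 1 kb of a gene end, inside a coding gene, held by both ASC lists, held by both QSC lists and held by none of these lists, for the 1881 regions ranked higher in LncMyod siRNA, the 2462 ranked lower and all 57635. Regions ranked lower are near a gene end in 12.9% of cases against 25.6% of those ranked higher, and lie in no ASC or QSC list in 23.3% against 8.98%.

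The same sets were followed through lists of 59666 peaks for all 8 libraries. Of the regions ranked higher, 950 were held by all 8, with a median percentile of 42.2 and 43.5 in LncMyod siRNA, 22.6 and 23.1 in control siRNA, 39.4 and 44.5 in ASC and 37.0 and 38.8 in QSC. The knockdown values lay among those of the uncultured cells, and the control values below all of them. Of the regions ranked lower, 794 were held by all 8, with 25.2 and 18.7 in LncMyod siRNA, 53.1 and 50.1 in control siRNA, 33.4 and 27.02 in ASC and 40.1 and 37.6 in QSC. Here ASC and QSC lay between the groups. Since the rule picked regions extreme in the 4 cultured libraries, any other library would tend to lie between, and these medians are a description.

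At gene starts listed in the promoter table, the widest gap in the higher direction was at Dennd2d, a Rab guanine exchange factor gene, which stood at 55.0 and 51.6 in LncMyod siRNA and 15.2 and 16.5 in control siRNA. Dgkd, a diacylglycerol kinase gene, stood at 64.3 and 71.4 in LncMyod siRNA and 33.8 and 18.5 in control siRNA. Nrap encodes a nebulin-related anchoring protein of forming myofibrils, and its start region stood at 66.4 and 71.6 in LncMyod siRNA and 28.5 and 39.3 in control siRNA. The groups do not overlap at these starts, and Nrap is a muscle gene whose start ranked higher and not lower after the knockdown. Tob2, an antiproliferative factor, Limch1, Smim14, F2rl2 and the histone gene H2ac4 also had starts ranked higher, with gaps of 22.9 to 26.3 points. In the lower direction the widest gap was over the start of the long noncoding 1500009C09Rik, at 16.1 and 6.89 in LncMyod siRNA and 57.4 and 58.8 in control siRNA. Lower coding starts included Prss28, a serine protease gene, at 17.6 and 3.69 in LncMyod siRNA and 52.4 and 67.1 in control siRNA. Tpp1, a lysosomal peptidase gene, stood at 43.2 and 33.8 in LncMyod siRNA and 74.7 and 71.6 in control siRNA. Tnf, the inflammatory cytokine, stood at 14.6 and 10.2 in LncMyod siRNA and 46.1 and 39.5 in control siRNA. Trpv3, a cation channel gene outside the naming rule whose promoter is printed above, stood at 26.8 and 22.6 in LncMyod siRNA and 55.3 and 49.99 in control siRNA.

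Promoter sequences could be set beside the ranks for 305 coding starts in regions ranked higher and 60 in regions ranked lower. An E-box CANNTG was present in 61.0% of the promoters ranked higher and in 75.0% of those ranked lower, against 61.8% of the 10447 promoters in common regions and 68.8% of the 17492 in the table. The form CAGCTG, which is a subset of CANNTG, was present in 11.1% and 21.7%, against 15.3% and 15.1%. The forms CAGGTG or CACCTG, the same site read on either strand and also within CANNTG, were present in 17.4% and 33.3%, against 17.5% and 19.3%. The AP-1 site TGANTCA was present in 3.61% and 5.0%, against 4.56% and 7.08%, and CCAAT or ATTGG in 31.1% and 36.7%, against 38.2% and 39.0%. The median GC content was 64.7% in promoters ranked higher and 55.3% in those ranked lower, against 62.0% in common regions, so the sets differ in base composition as well as in motifs. A match of letters is not a binding site, and the 60 promoters ranked lower are few.

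Regions held by one group's lists and not the other's were rare. Both LncMyod siRNA lists and neither control siRNA list held 1245 regions (1.16%), and both control siRNA lists and neither LncMyod siRNA list held 2715 (2.53%). The order turned with the full lists, where 3122 regions were held only by LncMyod siRNA and 2044 only by control siRNA. It also turned when either knockdown library was left out. There were 15498 regions of LncMyod siRNA and 11280 of control siRNA without replicate 1, and 5918 and 3924 without replicate 2. In those counts 1 list was enough for LncMyod siRNA and control siRNA still needed both, which favours LncMyod siRNA. The order stayed without control siRNA replicate 1 (2452 and 7072) or 2 (2465 and 6947), where the favour is reversed. The counts with a library left out therefore do not show how stable the order is. The 1245 and 2715 regions of the main count were narrow and weak, with a median width of 487 bp for LncMyod siRNA and 339 bp for control siRNA. Both ASC lists held 24.3% of the LncMyod siRNA regions and 12.5% of the control siRNA regions, and both QSC lists 17.7% and 22.5%. The strongest regions held only by LncMyod siRNA lay in Gcfc2 and Pde1a, which encodes a calmodulin-dependent phosphodiesterase, and nearest to Btbd35f27, Gm826, Chst7 and En1, a homeobox gene. At Gcfc2 the fold was 4.402 and 3.93 in the LncMyod siRNA libraries. The strongest held only by control siRNA lay in Wscd1, Il1r2, a decoy receptor for interleukin-1, and Fbxl17, and nearest to Adam23, Zfp36l2 and Mef2c. The region by Mef2c, a partner of MyoD in muscle gene activation, lay 23 kb from the gene with a fold of 5.13 and 4.59 in the control siRNA libraries.

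Length covered by peaks gave a readout per gene that does not use fold. It was summed from 10 kb before each gene to 10 kb after it, scaled to the total covered length of the list, and analysed on the log2(bp + 500) scale, which understates changes of loci with little covered length. limma called 0 of 26804 loci at an adjusted p of 0.05 (0.0%), with a lowest adjusted p of 0.685. At an unadjusted p of 0.05 it called 1717 (6.41%), 861 of them higher and 856 lower. Groups did not overlap at 3722 loci higher (13.9%) and 6140 lower (22.9%) in LncMyod siRNA, and without scaling the split turned to 4812 higher and 3723 lower. There were 7737 loci higher and 11094 lower without LncMyod siRNA replicate 2, and without replicate 1 there were 8918 and 11893. The median log2 difference over all loci was −0.03.

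The loci with the lowest p are named by rule and not as calls, since each had an adjusted p of 0.685. Grap2, an adaptor of T cell signalling, had 5.31 and 5.61 kb in LncMyod siRNA and 2.68 and 2.66 kb in control siRNA, a log2 difference of 0.91 (SE 0.09). Ccdc185 and Hcar1 had 1.90 and 1.79 kb, and 0.992 and 0.974 kb, in LncMyod siRNA and were listed at 0 in control siRNA. In the lower direction, Pla2g2f, a secreted phospholipase gene, had 0.424 and 0.291 kb in LncMyod siRNA and 3.27 and 3.23 kb in control siRNA, and its log2 difference turned to 0.16 in lists of 59666 peaks from all 8 libraries. Cope, a subunit of the coatomer of Golgi vesicles, had 1.44 and 1.44 kb in LncMyod siRNA and 3.50 and 3.37 kb in control siRNA. Sun2, a protein of the inner nuclear membrane, had 1.36 and 1.29 kb in LncMyod siRNA and 2.87 and 3.46 kb in control siRNA.

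LncMyod, transcribed next to Myod1, was not found by name among the genes used, so its locus entered only through regions near Myod1. At Myod1 with 10 kb on both sides, covered length did not separate the groups. It was 3.26 and 3.78 kb in LncMyod siRNA and 3.52 and 3.57 kb in control siRNA, a log2 difference of −0.01 (SE 0.11, limma adjusted p = 0.990). The region over the Myod1 start (chr7:46376136-46377267) stood at percentiles of 10.3 and 24.1 in LncMyod siRNA and 4.10 and 4.56 in control siRNA, a gap of 5.75 points. Within 50 kb of Myod1 there were 10 common regions, and 0 of them passed the 10-point rule. Over all regions 3.26% passed it higher and 4.27% lower, so a count of 0 among so few says little. Low percentiles were also found at other myogenic loci. The region of 2056 bp just past the 3′ end of Myog, which encodes the differentiation factor myogenin, had a fold of 1.82 and 1.84 in LncMyod siRNA and 1.89 and 1.82 in control siRNA, at the bottom of the ranking in all 4 libraries. A low fold at a wide peak is not read here as closed chromatin, and why it is low there was not tested.

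At Ttn the ranks of fold and the covered length ran opposite ways. The gene encodes titin, the giant spring of the sarcomere, and its covered length was 6.34 and 4.08 kb in LncMyod siRNA and 12.3 and 9.90 kb in control siRNA, a log2 difference of −1.04 (SE 0.25, limma adjusted p = 0.715). The groups did not overlap, and 3 regions of the locus were held only by control siRNA. The 4 common regions of the locus nonetheless all ranked higher in LncMyod siRNA, by gaps of 1.56 to 5.23 points, and 0 of them passed the 10-point rule. Over all regions 23.1% had any gap in this direction. The region at chr2:76699054-76700806 lay outside Ttn and nearest to Plekha3. Among the 30000 strongest peaks per library the log2 difference in length was 0.20, and in the lists of 59666 peaks 0.33, so the lower covered length was not seen among the stronger peaks. Tnnt3, fast skeletal troponin T, had 3.47 and 3.06 kb in LncMyod siRNA and 4.86 and 4.13 kb in control siRNA (−0.40, SE 0.13, adjusted p = 0.756), a difference of 0.0039 with the gene body alone.

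Among the 50 sarcomere genes, 20 loci had lower and 4 higher covered length without overlap (40% and 8.0%, against 22.9% and 13.9% of all loci), and limma called 0 of the 50. Since each locus takes in 10 kb on both sides, neighbouring genes of a list can share peaks, and the loci are not all separate. The median log2 difference was −0.14, against −0.03 over all loci, and it was negative in every alternative tried. The list summed to 190.8 and 166.8 kb in LncMyod siRNA and 208.5 and 201.6 kb in control siRNA. The sums of the glial, mural, leukocyte and fibroadipogenic marker loci were also lower without overlap, and their part in this was not tested. All these sums depend on the scaling to total covered length, which was 54.96 and 49.68 Mb in LncMyod siRNA and 50.59 and 51.23 Mb in control siRNA. With the scaling undone, the groups overlap in the sarcomere, mural and fibroadipogenic sums, and only the glial and leukocyte sums stay lower without overlap. Added up locus by locus, the sarcomere genes held 3 regions found only in LncMyod siRNA and 16 found only in control siRNA. Over all 107452 regions the counts were 1245 (1.16%) and 2715 (2.53%). A region shared by neighbouring loci enters such a sum at each of them. Myot, which encodes the Z-disc protein myotilin, had 0 and 0.208 kb in LncMyod siRNA and 1.32 and 1.02 kb in control siRNA. Myh4, a fast myosin heavy chain, was listed at 0 in both LncMyod siRNA libraries and had 0.267 and 0.453 kb in control siRNA. Acta1, skeletal muscle actin, went the other way, with 5.24 and 4.69 kb in LncMyod siRNA and 4.46 and 4.05 kb in control siRNA (0.20, SE 0.11, adjusted p = 0.866), a difference that turned to −0.10 among the 30000 strongest peaks and −0.09 with lists shortened by fold.

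Ranks of sarcomere regions were not stable across libraries. Of 186 common regions at these loci, 10 ranked lower (5.38%) and 3 higher (1.61%) in LncMyod siRNA, against 4.27% and 3.26% of all. Myom1, the M-band protein myomesin, held a region at 53.0 and 42.1 in LncMyod siRNA and 80.5 and 80.6 in control siRNA. Ldb3, a Z-disc gene, held one at 6.51 and 7.64 in LncMyod siRNA and 31.8 and 20.5 in control siRNA. Tpm1, tropomyosin, held a region ranked higher, at 62.5 and 67.6 in LncMyod siRNA and 42.0 and 35.4 in control siRNA. The list's count changed with the library left out: without LncMyod siRNA replicate 1 it was 43 higher and 23 lower of 191 (background 15.9% and 14.7%), and without replicate 2 it was 12 higher and 17 lower of 212 (8.69% and 9.12%). Without control siRNA replicate 2 it was 16 and 15 of 191 (9.79% and 11.0%), and among the 30000 strongest peaks 1 and 1 of 76 (3.93% and 4.63%).

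Genes of excitation-contraction coupling, which link the membrane signal to calcium release, held 4 regions ranked higher (3.70%) and 6 ranked lower (5.56%) of 108, near the 3.26% and 4.27% of all regions. They held 29 and 10 of 109 without LncMyod siRNA replicate 1, against 15.9% and 14.7% of all, and without replicate 2 they held 7 and 16 of 116, against 8.69% and 9.12%. Covered length was higher without overlap at 1 of 20 loci (5.0%) and lower at 7 (35%), against 13.9% and 22.9% of all loci. The scaled lengths of these 20 loci summed to 100.1 and 91.4 kb in LncMyod siRNA and 101.6 and 107.8 kb in control siRNA, with replicate 2 the lowest. Cacna1s, the voltage sensor of the muscle membrane, held a region at 18.2 and 32.0 in LncMyod siRNA and 75.9 and 55.0 in control siRNA. Casq1, the calcium store protein calsequestrin, had one within 10 kb, inside the neighbouring gene Atp1a4, at 69.5 and 55.9 in LncMyod siRNA and 86.9 and 90.3 in control siRNA. Trdn, Jph1, Casq2 and Hrc also held lower regions, and Jph2, Jsrp1, Asph and Srl higher ones. At the neuromuscular junction genes, 3 of 49 regions ranked higher (6.12%) and 2 lower (4.08%), while covered length was higher without overlap at 1 of 11 loci (9.09%) and lower at 6 (54.5%). The scaled lengths of these 11 loci summed to 49.3 and 48.4 kb in LncMyod siRNA and 51.6 and 52.3 kb in control siRNA. Chrna1, the acetylcholine receptor alpha subunit, stood at 22.0 and 30.3 in LncMyod siRNA and 3.21 and 6.95 in control siRNA over the start of its antisense gene.

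**Figure D4:**
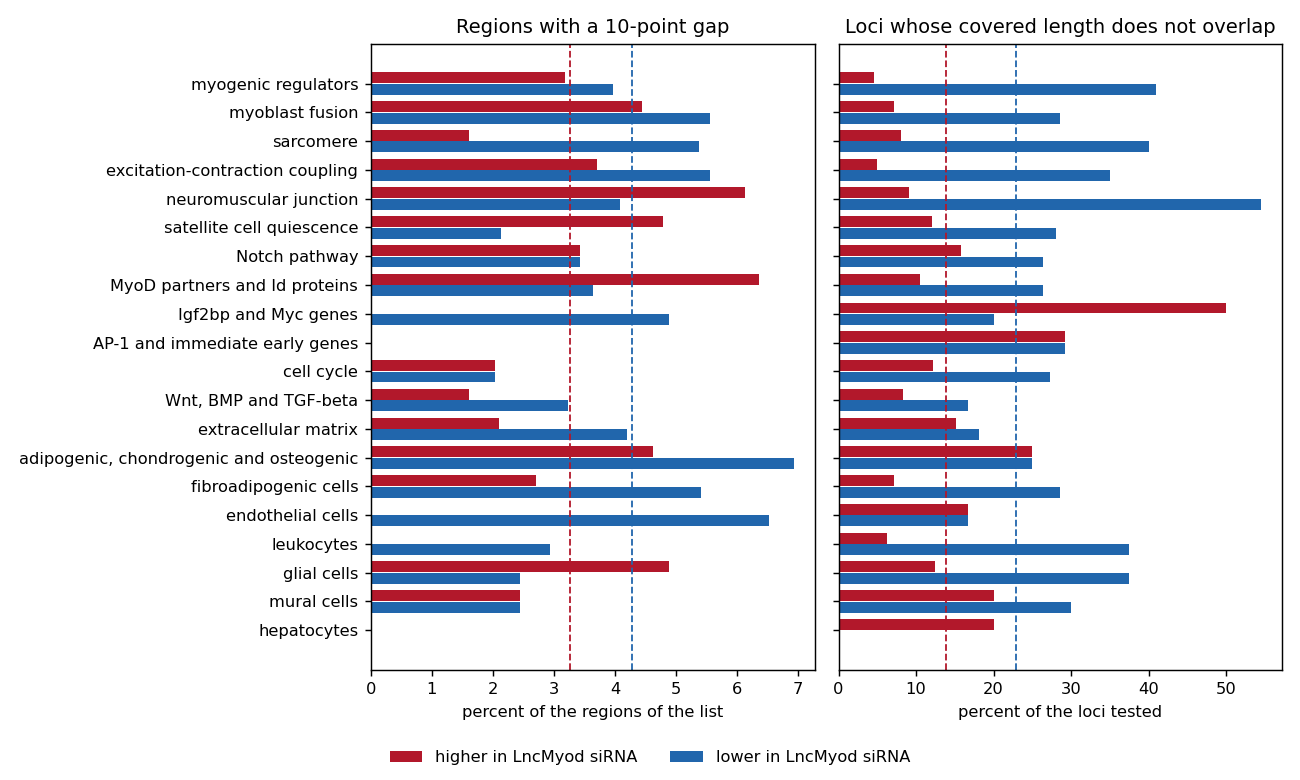
For each of the 20 gene lists, the percent of its common regions with a 10-point gap (left) and the percent of its tested loci whose covered length does not overlap between the groups (right); red is higher and blue lower in LncMyod siRNA, and dashed lines are the shares over all regions or loci (3.26% and 4.27%, 13.9% and 22.9%). Sarcomere loci have lower covered length in 40% of cases, and lists with few regions or loci give coarse shares.

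Myogenic regulators held 4 regions ranked higher (3.17%) and 5 lower (3.97%) of 126, near the 3.26% and 4.27% of all regions. They held 34 and 10 of 127 without LncMyod siRNA replicate 1, against 15.9% and 14.7% of all, and without replicate 2 they held 10 and 16 of 151, against 8.69% and 9.12%. Covered length was higher without overlap at 1 of their 22 loci (4.55%) and lower at 9 (40.9%), against 13.9% and 22.9% of all loci, with a median log2 difference of −0.10 and 0 calls by limma. Their scaled lengths summed to 122.8 and 102.8 kb in LncMyod siRNA and 123.6 and 126.6 kb in control siRNA. LncMyod siRNA replicate 1 thus lay near the control libraries and replicate 2 well below them. Mef2a, a MADS-box partner of MyoD, held a region (chr7:67243203-67244252) at 39.8 and 43.6 in LncMyod siRNA and 72.8 and 77.5 in control siRNA. Tcf12, which encodes an E protein that pairs with MyoD, held one (chr9:71915887-71916391) at 47.4 and 28.9 in LncMyod siRNA and 72.3 and 86.1 in control siRNA. Mef2c held a pair of regions ranked lower, the first at 68.7 and 47.6 in LncMyod siRNA and 85.2 and 83.0 in control siRNA. Neither region of Mef2c was held by any ASC or QSC list. Covered length at Mef2c was 3.84 and 3.79 kb in LncMyod siRNA and 4.39 and 4.43 kb in control siRNA (−0.19, SE 0.09, adjusted p = 0.838). At Tcf12 it was 8.46 and 4.90 kb in LncMyod siRNA and 9.34 and 9.47 kb in control siRNA. At Myog it was 5.74 and 4.34 kb in LncMyod siRNA and 5.87 and 4.98 kb in control siRNA, and the groups overlapped.

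**Figure D5:**
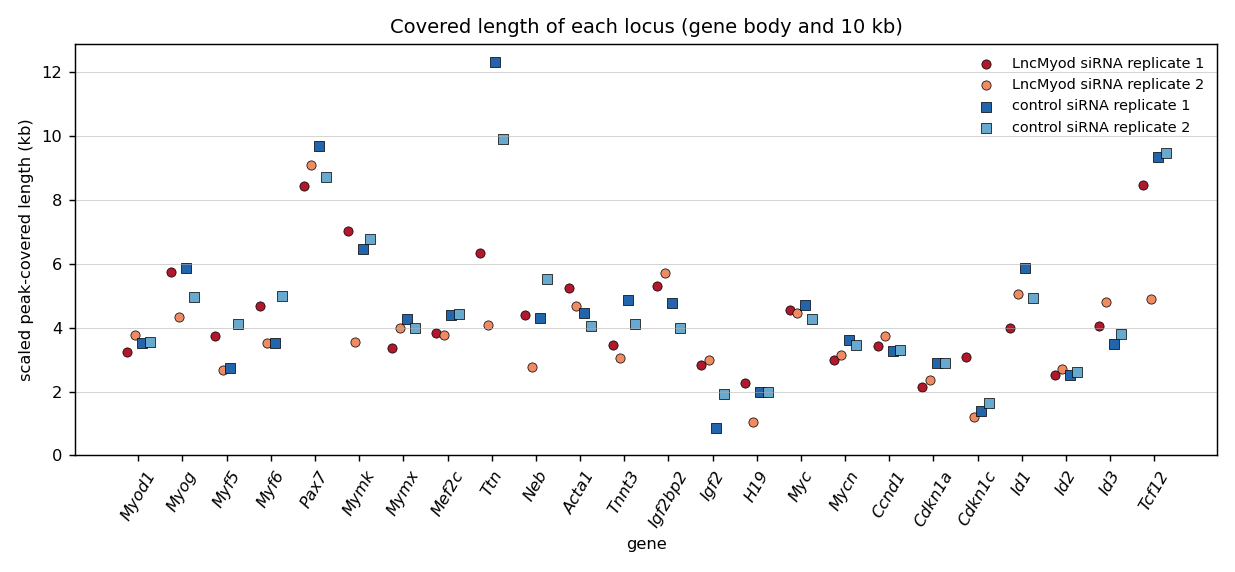
Scaled length covered by peaks, in kb, from 10 kb before to 10 kb after the 24 genes fixed by name; circles are the 2 LncMyod siRNA libraries and squares the 2 control siRNA libraries. Ttn has 6.34 and 4.08 kb in LncMyod siRNA and 12.3 and 9.90 kb in control siRNA, and the groups overlap at Myod1, Myog, Myf5, Myf6 and Pax7.

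Of 110 regions at partners and inhibitors of MyoD, 7 ranked higher (6.36%) and 4 lower (3.64%) in LncMyod siRNA, against 3.26% and 4.27% of all regions. Id1, whose protein binds E proteins and keeps them from MyoD, had a region 4 kb away at 29.9 and 22.9 in LncMyod siRNA and 5.49 and 10.4 in control siRNA. Msc, the repressor musculin, held one at 58.2 and 58.7 in LncMyod siRNA and 30.01 and 26.7 in control siRNA. Mdfic and Bhlhe40, both inhibitors of myogenic factors, held 2 each, and at the Mdfic start the values were 76.5 and 81.6 in LncMyod siRNA and 66.4 and 63.5 in control siRNA. Mdfi, a further inhibitor of the MyoD family, ranked lower, at 26.6 and 16.5 in LncMyod siRNA and 40.5 and 47.9 in control siRNA, as did regions of Hdac4, Smarca4 and Tcf12. The inhibitors therefore did not share 1 direction. Without LncMyod siRNA replicate 2 the list had 13 regions higher and 11 lower of 126, against 8.69% and 9.12% of all regions, and without replicate 1 it had 30 and 10 of 112, against 15.9% and 14.7%.

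Satellite cell quiescence genes held 9 regions ranked higher and 4 lower of 188 (4.79% and 2.13%). Over all regions the shares were 3.26% and 4.27%. Without LncMyod siRNA replicate 2 the quiescence genes held 28 higher and 11 lower of 212, against 8.69% and 9.12% of all regions. Without replicate 1 they held 43 and 25 of 197, against 15.9% and 14.7%. Among the 30000 strongest peaks they held 1 and 1 of 52, against 3.93% and 4.63%. Vcam1, an adhesion molecule of satellite cells, held one at 42.1 and 64.0 in LncMyod siRNA and 13.5 and 29.1 in control siRNA. Cd34, a surface marker of these cells, stood at 52.9 and 47.1 in LncMyod siRNA and 25.1 and 28.3 in control siRNA at a start. Itga7, the laminin receptor subunit, had one within 5 kb at 27.9 and 43.6 in LncMyod siRNA and 3.98 and 15.01 in control siRNA. Covered length was higher without overlap at 3 of 25 loci (12%) and lower at 7 (28.0%), near the 13.9% and 22.9% of all loci.

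Among fusion genes, 4 regions ranked higher (4.44%) and 5 lower (5.56%) of 90, against 3.26% and 4.27% of all. They were 25 and 10 of 92 without LncMyod siRNA replicate 1, against 15.9% and 14.7% of all. Without replicate 2 they were 11 and 11 of 98, against 8.69% and 9.12%. The start of Neo1, the receptor neogenin, stood at 69.8 and 76.0 in LncMyod siRNA and 52.2 and 52.6 in control siRNA. Dysf, which encodes the membrane repair protein dysferlin, held 2 lower regions, one at 61.6 and 63.1 in LncMyod siRNA and 81.3 and 82.5 in control siRNA. Covered length at Mymk, the fusion factor myomaker, was 7.02 and 3.55 kb in LncMyod siRNA and 6.45 and 6.78 kb in control siRNA, so replicate 2 alone was low.

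Genes tied to Igf2bp2, the RNA-binding partner of LncMyod, had more covered length in LncMyod siRNA at some loci. At Igf2, the growth factor gene, it was 2.84 and 3.00 kb in LncMyod siRNA and 0.855 and 1.94 kb in control siRNA (log2 difference 0.91, SE 0.32, adjusted p = 0.768). At Igf2bp2 it was 5.29 and 5.73 kb in LncMyod siRNA and 4.78 and 3.98 kb in control siRNA (0.30, SE 0.13, adjusted p = 0.808). The ranks there ran the other way, with a mean percentile over 7 common regions of 60.2 and 58.1 in LncMyod siRNA and 66.1 and 65.2 in control siRNA. Covered length at Ccnd1, cyclin D1, was 3.42 and 3.74 kb in LncMyod siRNA and 3.26 and 3.30 kb in control siRNA, a difference that turned to −0.09 with the gene body alone. Of the 10 loci of this list, 5 had higher and 2 lower covered length without overlap, against 13.9% and 22.9% of all, while 0 of its 41 regions ranked higher and 2, both of Hmga2, ranked lower. Myc itself overlapped between the groups, with 4.57 and 4.46 kb in LncMyod siRNA and 4.70 and 4.27 kb in control siRNA. Mycn was lower without overlap, with 3.00 and 3.14 kb in LncMyod siRNA and 3.62 and 3.45 kb in control siRNA. Cdkn1a, the p21 inhibitor of the cell cycle, had 2.14 and 2.36 kb in LncMyod siRNA and 2.907 and 2.905 kb in control siRNA (−0.31, SE 0.10, adjusted p = 0.768), a difference near 0 among the 30000 strongest peaks. Cell cycle genes as a list held 2 regions higher and 2 lower of 98 (2.04% each), against 3.26% and 4.27% of all regions.

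AP-1 and immediate early genes held 0 regions ranked higher and 0 lower of 67, against 3.26% and 4.27% of all regions. The count depended on which knockdown replicate was used. Without LncMyod siRNA replicate 1 they held 24 higher and 2 lower of 69, against a background of 15.9% and 14.7%, and without replicate 2 they held 1 higher and 6 lower of 70, against 8.69% and 9.12%. At the region of Jun, the AP-1 subunit, the percentile was 18.5 and 44.9 in LncMyod siRNA and 8.13 and 21.7 in control siRNA. Socs3, an inhibitor of cytokine signalling, averaged 37.1 and 53.6 in LncMyod siRNA and 44.2 and 50.2 in control siRNA over 5 regions.

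For the remaining lists the shares of all regions are again 3.26% higher and 4.27% lower. Notch genes held 4 regions higher and 4 lower of 117 (3.42% each), with Dll1 and Heyl higher and Dll4, Maml2 and Numb lower. Wnt, BMP and TGF-beta genes held 3 higher (1.61%) and 6 lower (3.23%) of 186, and extracellular matrix genes 4 higher (2.09%) and 8 lower (4.19%) of 191. Genes of the adipogenic, chondrogenic and osteogenic fates held 6 higher (4.62%) and 9 lower (6.92%) of 130, with Runx1 and Ebf1 higher, Zfp423, Prdm16 and Cebpa lower, and Runx2 and Sox6 in both directions. Among the marker lists, regions were 1 higher and 2 lower of 37 for fibroadipogenic cells, 0 and 3 of 46 for endothelial cells, 0 and 1 of 34 for leukocytes, 2 and 1 of 41 for glial cells, 1 and 1 of 41 for mural cells and 0 and 0 of 8 for hepatocytes. Without LncMyod siRNA replicate 1 glial regions were 12 higher and 1 lower of 42 and endothelial regions 3 and 12 of 46. The shares of all regions were then 15.9% and 14.7%. Without replicate 2 they were 3 and 6 of 51 and 2 and 8 of 50, against 8.69% and 9.12% of all. Covered length was lower without overlap at 6 of 16 leukocyte loci and 3 of 8 glial loci (37.5% each), against 22.9% of all loci.

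Some loci gathered several regions ranked the same way. They were picked for holding the most such regions, so a shared direction follows from the choice. Loci with many common regions have more to call, and over all regions 3.26% ranked higher and 4.27% lower. Macf1, which crosslinks actin and microtubules, held 4 regions ranked higher of 17 and 0 lower, and over all 17 the mean percentile was 47.1 and 55.7 in LncMyod siRNA and 39.0 and 42.5 in control siRNA. Mbnl2, a splicing factor of the muscleblind family, held 4 higher and 1 lower of 18. Rapgef2, Rnf150, G6pdx, Zfp827, Akap13, Palld, Camk1d and Aopep held 3 higher each. Their common regions numbered 14, 13, 4, 12, 14, 24, 8 and 34, in that order. Covered length at Macf1 was 20.8 and 15.9 kb in LncMyod siRNA and 19.4 and 22.5 kb in control siRNA, so the length did not follow the ranks. At Rapgef2, Rnf150, Zfp827, Camk1d and Aopep the length was lower without overlap, and at the other loci named in this direction the groups overlapped. Over all loci 13.9% were higher and 22.9% lower without overlap. Palld, the actin-binding protein palladin, held 0 net higher regions without LncMyod siRNA replicate 2 and 11 without replicate 1.

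In the lower direction, Camta1, a calmodulin-binding transcription factor gene, held 5 regions ranked lower of 35 and 0 higher. Over all 35 the mean percentile was 42.4 and 41.8 in LncMyod siRNA and 51.3 and 46.4 in control siRNA. Glis1, Prkce, Anks1 and Snx29 held 5 lower each, of 17, 20, 12 and 28 common regions. Ltbp2, Nrxn2, Ephb2, Med27 and Kcnq1 held 4 each, of 15, 9, 18, 9 and 17. These loci too were picked for their number of called regions. Prkce, the kinase PKC epsilon, had more covered length in LncMyod siRNA, at 20.3 and 27.1 kb against 18.5 and 16.3 kb in control siRNA (log2 0.42, SE 0.17, adjusted p = 0.806), while its 5 regions ranked lower. Anks1 and Ephb2 also had more covered length without overlap, Snx29 had less, and at the other loci named in this direction the groups overlapped.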

How the data were processed

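Open chromatin was measured by ATAC-seq in 4 libraries, 2 with LncMyod siRNA and 2 with control siRNA, with paired reads of 75 bases. The deposited broad peak lists (mm10) hold, per peak, a fold enrichment ratio, −log10 p and q values and a score made by the authors; the submitters' processing notes name Trimmomatic 0.36, Bowtie2 2.3.2, SAMtools 1.3, Picard 2.9.2, bedtools 2.26.0 and MACS2 2.1.1, and no source used here says if read ends were shifted. Peaks were called per library, depth is unknown, and no interval that needs it is given. Lists were shortened to 79396 peaks by −log10 p, merged into regions, and the highest fold per region was ranked within each library. Ranks as normal scores, and log2(scaled covered bp + 500) per locus, were tested with limma 3.58.1 (R 4.3.3) with a trended prior and Benjamini-Hochberg adjustment over all regions or loci. Loci were coding and long noncoding genes of RefSeq GRCm38.p6 with 10 kb on both sides and at least 200 bp covered in 2 libraries, without Y. Named items are the 10 widest gaps per direction, the 10 widest near listed starts, the 10 loci with most called regions, the 8 lowest p by length, the 6 strongest group-specific regions and 24 fixed genes; some named by these rules are not reported here. Members, lists and tests were chosen with earlier results of these data known. The scripts were tested on simulated data.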

Additional observations from a re-analysis of the deposited data

How the results depend on the processing

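With the replicate block, limma called 0 regions (lowest adjusted p 0.234) and 0 loci (0.807); same-numbered libraries shared only a number, with correlations of deviations of 0.044 for rank scores and 0.058 for covered length. Leaving out 1 library, which assumes that the lone library varies like the other group, gave 0 to 77 regions and 0 loci by limma, 4807 to 9386 regions ranked higher and 5583 to 8679 lower, 2452 to 15498 regions held only by LncMyod siRNA and 3924 to 11280 only by control siRNA, and 6517 to 8918 loci higher and 9491 to 11893 lower without overlap. With the 30000 strongest peaks, 956 regions ranked higher and 1127 lower, 685 were held only by LncMyod siRNA and 725 only by control siRNA, 3973 loci were lower without overlap, and the Jaccard index was 0.718 within LncMyod siRNA and 0.736 between the groups. Any gap gave 13295 regions higher and 10493 lower, a gap of 20 points 243 and 496, regions of 1 peak per list 1153 higher, ranks of −log10 p 1479 lower, full lists 3122 held only by LncMyod siRNA, and no scaling 3723 loci lower. A fit with all 8 libraries, on lists of 59666 peaks, called 23 of 26820 loci. The log2 difference in covered length turned sign with the 30000 strongest peaks at Acta1 (−0.10), Cdkn1a (0.00072), Gm42323 (−0.028) and Ttn (0.20), with lists shortened by fold at Acta1 (−0.086), in the fit of 8 libraries at Cdkn1a (0.0034), Etf1 (0.077), Pla2g2f (0.16) and Ttn (0.33), and with the gene body alone at Ccnd1 (−0.088), Id3 (−0.051), Mapk15 (−0.58) and Tnnt3 (0.0039). The cause was not tested. Of 525 values at 39 named loci these 13 turned sign. Named regions were chosen for their gaps in the same libraries, so that 0 of 358 values at 37 of them turned sign shows no stability, and 68 of the 358 moved by more than the spread. Depth is unknown, so how far it limits weak peaks cannot be given.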

Other observations

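The fit of all 8 libraries, which shares 1 estimate of the spread and uses lists of 59666 peaks, called 23 of 26820 loci by limma. All had more covered length in LncMyod siRNA, against 0 calls in the fit of 4 libraries. The 23 are not all separate. Gm31136 and 4931408C20Rik had the same lengths (2.31 and 2.67 kb in LncMyod siRNA), as did Tspan1 and 1700042G07Rik (1.68 and 1.80 kb), all listed at 0 in control siRNA. The antisense gene Gata6os was called along with Gata6. The ASC and QSC values, which enter the shared spread, are not given here. Gata6, a zinc-finger factor of heart and endoderm, had 3.59 and 3.05 kb in LncMyod siRNA and 0.965 and 0.823 kb in control siRNA (log2 difference 1.45, adjusted p = 0.0247). Hoxd12, a limb patterning gene, had 2.84 and 3.23 kb in LncMyod siRNA and 0.309 and 0.311 kb in control siRNA (2.12, adjusted p = 0.0349). Shank3, a scaffold of the synapse, had 3.48 and 3.35 kb in LncMyod siRNA and 1.04 and 1.22 kb in control siRNA (1.26, adjusted p = 0.0467). Lrrtm1 and Nhlh2, both genes of neurons, had 2.40 and 2.58 kb, and 1.36 and 1.56 kb, in LncMyod siRNA and were listed at 0 in control siRNA.

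Histone gene starts were looked at after their values were seen. Of 29 common regions at such starts, each listed under 1 start, 6 passed the 10-point rule in the higher direction and 0 in the lower. The shares were 3.26% and 4.27% of all regions, and 2.97% and 1.96% of regions within 1 kb of a gene end. LncMyod siRNA replicate 2 ranked gene ends higher, as given above. H2ac8 stood at percentiles of 59.2 and 63.0 in LncMyod siRNA and 36.9 and 33.7 in control siRNA, and H2bc9 at 87.9 and 85.3 in LncMyod siRNA and 72.6 and 71.6 in control siRNA. H2ac4, H2ac6, H2ac11 and H3c8 also passed the 10-point rule, all ranked higher in LncMyod siRNA. At H2ac19 the groups overlapped, with 5.33 and 12.9 in LncMyod siRNA and 7.61 and 1.54 in control siRNA. Many of these genes lie side by side on chromosome 13 and are near copies, so their reads may not be told apart.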
